A study of Danio rerio with 4 samples.

Results

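The cytosolic ribosomal protein genes of the zebrafish encode the proteins of the small (rps) and large (rpl) subunits of the ribosomes that work outside the mitochondria. They were chosen by name: every gene whose symbol is rps or rpl followed by a digit, with rplp0, rplp1, rplp2 and rpsa added and the S6 kinase genes (rps6k) left out. This gave 82 genes, 35 of the small and 47 of the large subunit, read by 174 probes, out of 12332 named genes and 36026 probes that passed the detection filter (a spot well above its background on at least 2 of 4 arrays). Before that filter the members also numbered 82 genes and 174 probes, all of them well above background on all 4 arrays. Of 84 symbols of this kind in the RefSeq gene table, rps11b and rps19bp1 had no probe among those read and were not analysed here.

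RNA came from whole zebrafish embryos at 24 or 96 hours post fertilization (hpf), kept in 0 µM copper (control) or 3.9 µM copper (Cu). Each of the 4 combinations was measured once, on a one-colour (Cy3) Agilent array, and the labels name no strain, allele or transgene and do not say how many embryos gave an RNA sample. Copper is an essential metal that is toxic in excess, and the design sets copper against control at each age. Groups follow the sample labels. File names and the authors' own comparisons carry the reverse treatment at both ages, so every copper difference below turns its sign if the file names are right, while age differences do not depend on this.

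A ribosome holds 1 copy of nearly every ribosomal protein, and the genes are therefore known for being transcribed at high and matched levels. In vertebrates their mRNAs start with a terminal oligopyrimidine (TOP) stretch, through which growth signals acting by way of mTOR set their translation. The finished proteins enter the nucleolus, where they are joined to ribosomal RNA with the help of a large set of assembly factors. In zebrafish, loss of single ribosomal protein genes is known to disturb blood formation, and heterozygous carriers of several such mutations develop tumours. Probe and promoter sequences were not used here, and the members are identified by symbol.

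The 4 arrays differed in brightness. The median processed signal per array was 162.2 and 366.4 at 24 hpf (control and copper) and 194.4 and 190.2 at 96 hpf, and 76.9% to 83.6% of 43569 probes were well above background. The array labelled copper at 24 hpf thus stood apart from the other 3, and results that rest on it are given under several scalings. No spot was flagged as saturated. Among the markers of cell types, the 8 exocrine pancreas genes read higher on the copper than on the control array at 96 hpf (median log2 difference 5.14), and the 3 hatching gland genes read lower (-4.24). Markers of muscle, lens, neurons, epidermis, erythroid cells and hatching gland that had a detected probe were all well above background on every array, as a whole embryo would give. Of the pancreas genes, ctrb.1, cpa5 and cel.1 were not well above background at 24 hpf.

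Most ribosomal protein probes were among the brightest on these arrays. Before any scaling, the median signal of the members' brightest probes was 127874 and 137772 on the control and copper arrays at 24 hpf, and 109930 and 106995 on those at 96 hpf. Over all genes the same medians were 1176, 1790, 1084 and 1108. The 24 hpf copper array was the brightest for members and for all genes, but the step up from its control was proportionally smaller for the members. After quantile normalization, which gives every array the same distribution of values, 136 of the 174 member probes had a mean log2 signal of at least 16, a level reached by 406 of all 36026 probes (1.13%). Of the 91 probes at or above 17, 36 (39.6%) read a ribosomal protein gene. A probe's brightness also depends on its sequence, so these values order probes on the scanner and not mRNAs in the embryo.

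Taking each gene by its brightest probe, the members' median normalised log2 signal was 16.96 and 16.84 at 24 hpf (control and copper) and 16.85 and 16.83 at 96 hpf. The 4 medians lay within a narrow band, with the 24 hpf control array highest. Small subunit genes had medians of 17.03, 16.97, 16.86 and 16.86 on the arrays in the same order, and large subunit genes 16.89, 16.79, 16.84 and 16.81. Of the 82 genes, 72 had a brightest probe with a mean of at least 16. At the other end stood rps8b, a second copy of the gene for the small subunit protein eS8, whose probe read 7.60, 7.12, 6.74 and 6.49. The probe of rps8a, the other copy, read 17.59, 17.26, 17.38 and 17.51. The rps8b probe was thus dim on every array and that of rps8a bright on every array.

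**Figure D1:**
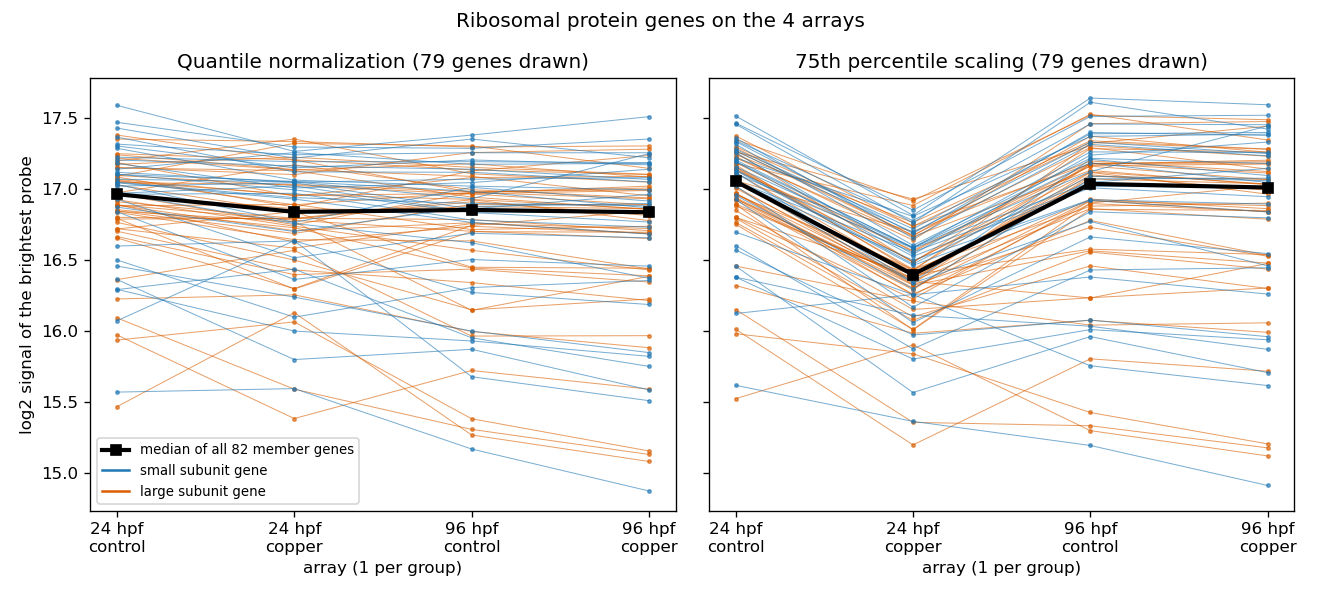
Log2 signal of the brightest probe of each ribosomal protein gene (vertical axis) on the 4 arrays (horizontal axis, 1 array per group), under quantile normalization on the left and 75th percentile scaling on the right. Thin lines join the values of one gene, blue for small and orange for large subunit genes, and the black line is the median of all 82 genes (the 3 genes that read below 14 are not drawn). The median line is nearly flat under quantile normalization, while under 75th percentile scaling the array labelled copper at 24 hpf dips below the other 3.

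Between 24 and 96 hpf few ribosomal protein genes passed the test. With age and copper fitted over the 4 arrays in limma, 3 of the 82 members were lower at 96 hpf at a Benjamini-Hochberg adjusted p under 0.05 (rpl7l1, rps3 and rpl28) and 0 were higher. Among all 12332 genes 15.1% were called lower and 17.3% higher, and among the members 3.66% were lower. Probes of any gene above a mean log2 signal of 16 were called less often. From 16 to 17, 10.8% of all probes were lower and 6.35% higher. At or above 17 the shares were 1.1% and 0%. Member probes in these 2 ranges were lower in 6% and 0%, and none was higher. At an unadjusted limma p under 0.05, 11 members were lower and 0 higher, and 5408 of all 12332 genes passed in either direction. The members' median age difference was -0.11, against -0.10 over all genes, and their differences ran from -1.36 to 0.32. The residual of this fit has 1 degree of freedom, which is how far copper's effect at 24 hpf departs from that at 96 hpf. The eBayes step draws each probe's variance toward that of probes of like signal, and without this trend no member was called. The labels do not state separate embryo pools, so these p-values reflect how the 4 arrays scatter, pooled over probes, which may be technical.

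The direction of the family's age difference depended on the scaling. Under quantile normalization 65 of the 82 members had a difference below 0 (54.2% of all genes did). Under scaling by each array's 75th percentile 22 members did, where 6171 of all 12332 genes did. The members' median turned from -0.11 to 0.24 while that of all genes went from -0.10 to -0.00. The median over all probes moved from -0.19 to -0.02 between these scalings. Under 75th percentile scaling 1 member was called lower (11.5% of all genes were). Under normexp background correction followed by quantile normalization the members' median was -0.12, and 4 were called lower (14% of all genes). Of the 82 genes, 36 kept one sign under all 3 scalings, 21 of them below 0 and 15 above. This count is given without the share over all genes. In RNA of whole embryos, fewer cells that express a gene and less of its RNA per cell cannot be told apart.

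The largest age difference among the members belonged to rpl7l1, a relative of rpl7 whose counterpart in budding yeast, Rlp7, assists the assembly of the large subunit in the nucleolus. Its single probe read 13.44 and 13.83 at 24 hpf (control and copper) and 12.44 and 12.10 at 96 hpf. Both 96 hpf arrays were below both 24 hpf arrays. The fall was 1.36 on the log2 scale (SE 0.32, adjusted p = 0.010 by limma), or 2.57-fold lower, and it stayed past the threshold under 75th percentile scaling (-1.42, adjusted p = 0.013). Without the 24 hpf copper array, with age alone in the model, the value was -1.17 with an adjusted p of 0.053, and without a trend in eBayes the adjusted p was 0.058. The gene rpl7 itself, a component of the large subunit, read 17.15, 17.10, 17.25 and 17.28, a difference of 0.14 (SE 0.16, adjusted p = 0.55).

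The other genes past the threshold were rps3, which lines the mRNA entry channel of the small subunit, and rpl28, a large subunit protein that budding yeast lacks. The brightest rps3 probe read 16.07 and 16.63 at 24 hpf, and 15.68 and 15.51 at 96 hpf. It fell by 0.76 with age (SE 0.23, adjusted p = 0.029 by limma), although its copper array at 24 hpf was well above the control array of that age. The rpl28 probe read 15.93 and 16.06 at 24 hpf and 15.38 and 15.15 at 96 hpf, a fall of 0.73 (SE 0.21, adjusted p = 0.027 by limma). Both genes had 96 hpf values below all 24 hpf values, and neither passed the threshold under 75th percentile scaling (-0.50, adjusted p = 0.24, and -0.59, adjusted p = 0.17). Without the 24 hpf copper array the values were -0.48 and -0.67, and without the 96 hpf copper array -0.68 and -0.62, with no call for either. Without the 24 hpf control array they were -1.04 and -0.79, and without the 96 hpf control array -0.84 and -0.84. These fits had age alone in the model and 1 array at one of the ages. Which members were called depended on the array left out, and no share over all genes is given for these fits.

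Among the other members the lowest age differences were those of rps8b (-0.75, adjusted p = 0.28), rpl6 (-0.62, adjusted p = 0.084), rpl22l1 (-0.62, adjusted p = 0.052), rps10 (-0.56, adjusted p = 0.083) and rpl29 (-0.54, adjusted p = 0.0501), none past the limma threshold. The gene rpl22l1 is the paralog of rpl22, an RNA-binding large subunit protein. Its probe read 16.09, 15.59, 15.31 and 15.13 over the 4 arrays, and the rpl22 probe 16.76, 16.50, 16.15 and 16.22. Both genes thus read lower on both 96 hpf arrays, by 0.62 and 0.44 on average, without a call for either. At the upper end stood rplp2, a stalk protein (0.32, adjusted p = 0.24), and other high values were those of rpl4 (0.15), rpl7 (0.14), rpl23a (0.14), rpl13a (0.12), rps20 (0.10) and rpl3 (0.09). Each of these was within 2 SE of 0.

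The acidic stalk recruits translation factors to the large subunit and is built from rplp0, rplp1 and rplp2, while rpsa sits on the small subunit and is also known as the laminin receptor. Their age differences were -0.11 for rplp0, -0.50 for rplp1 (adjusted p = 0.073), 0.32 for rplp2 and -0.06 for rpsa. The probe of rplp1 read 16.36, 16.57, 15.96 and 15.97, and that of rplp2 16.65, 16.30, 16.74 and 16.84. The first was lower on both 96 hpf arrays and the second higher, and neither passed the threshold. The 5S particle genes, whose proteins bind 5S rRNA and enter the large subunit with it, had differences of -0.30 (rpl5a), 0.09 (rpl5b) and -0.33 (rpl11). A list of 10 orthologs of genes mutated in human Diamond-Blackfan anaemia, which includes these 5S particle genes, had a median of -0.13. The exit tunnel genes rpl4, rpl17, rpl19, rpl23a, rpl26, rpl31, rpl35 and rpl39 ran from -0.27 (rpl31) to 0.15 (rpl4). There was no call in either group. The planned list of exit tunnel genes held rpl23 and rpl24 and did not hold rpl4. The age differences of rpl23 and rpl24 were -0.37 and -0.11, and under 75th percentile scaling -0.11 and 0.26. Under 75th percentile scaling the exit tunnel genes named above were all above 0, from 0.13 (rpl31) to 0.50 (rpl23a). That scaling put rplp0 at 0.28 and rpsa at 0.36, while rplp1 (-0.28) and rplp2 (0.58) kept their signs. The 5S particle genes kept theirs too, at -0.12 (rpl5a), 0.39 (rpl5b) and -0.04 (rpl11).

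Probes of one gene did not all tell the same story. Counted over probes, 21 of 174 were lower at 96 hpf and 0 higher, against 15.7% and 14.9% of all probes. These 21 probes read 18 genes, and no gene with several probes had all of them called. For rps6, the small subunit protein phosphorylated by S6 kinase, the brightest probe read 17.43, 17.22, 17.35 and 17.22 over the 4 arrays, and the dimmest of 4 probes 15.23, 15.97, 14.77 and 14.50. The brightest had an age difference of -0.04 (adjusted p = 0.89), and the others -0.38, -0.89 (adjusted p = 0.020) and -0.97 (adjusted p = 0.023). For rps23, a protein of the decoding centre, the difference was -0.39 by the brighter probe and -0.96 by the dimmer (adjusted p = 0.009, the smallest among member probes). Likewise rpl8, near the peptidyl transferase centre, had -0.24 by its brightest probe and -0.70 and -0.68 by the others (adjusted p = 0.034 and 0.038).

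Among the 57 members with several probes, the dimmest had a lower age difference than the brightest in 47, with a median gap of -0.33. Over all 7096 genes with several probes the median gap was also -0.33, and 78.9% showed that order, close to the share of 47 in 57 among the members. By mean log2 signal, the 36 member probes at or above 17 had a median age difference of -0.04, the 100 from 16 to 17 -0.23, and the 29 from 15 to 16 -0.63. The 2 from 14 to 15 had a median of -0.77 and the 7 below 14 one of -0.34. All probes in the same ranges had medians of -0.00, -0.12 and -0.16. From 15 to 16, all 29 member probes were below 0 and 14 were called lower, where 25.1% of all probes in that range were. Over all signals, 150 of 174 member probes lay below 0 (57.3% of all probes). Under 75th percentile scaling 84 of the 174 lay below 0, with a median of 0.04 in place of -0.23 and 1 call, while 28 of the 29 probes from 15 to 16 were still below 0 (median -0.49). Taking every gene by its dimmest probe, an alternative chosen after seeing the data, 16 members were called lower (16.8% of all genes) and 0 higher (14.3%). A near-identical copy can lend signal to a probe, and this was not tested.

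**Figure D2:**
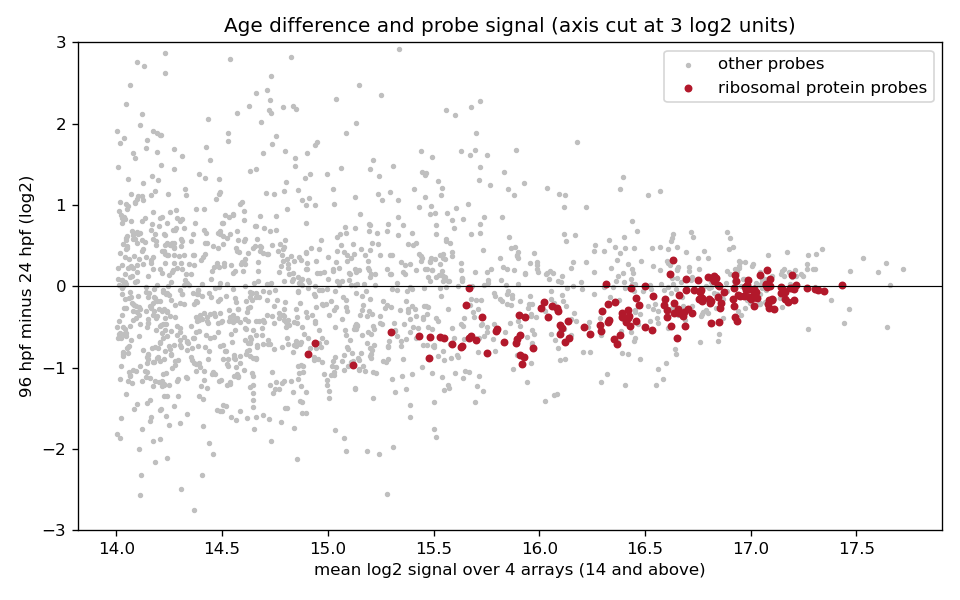
Age difference (96 minus 24 hpf, log2, quantile normalization) against mean log2 signal over the 4 arrays for every probe with a mean of at least 14, with ribosomal protein probes in red and others in grey. Of 1695 such probes, 29 lie beyond the axis limit of 3 and none of them is a member. Red points below 16 lie under 0, and those above 17 lie close to 0. Under 75th percentile scaling, which is not drawn here, the median over all red probes turned from -0.23 to 0.04.

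**Figure D3:**
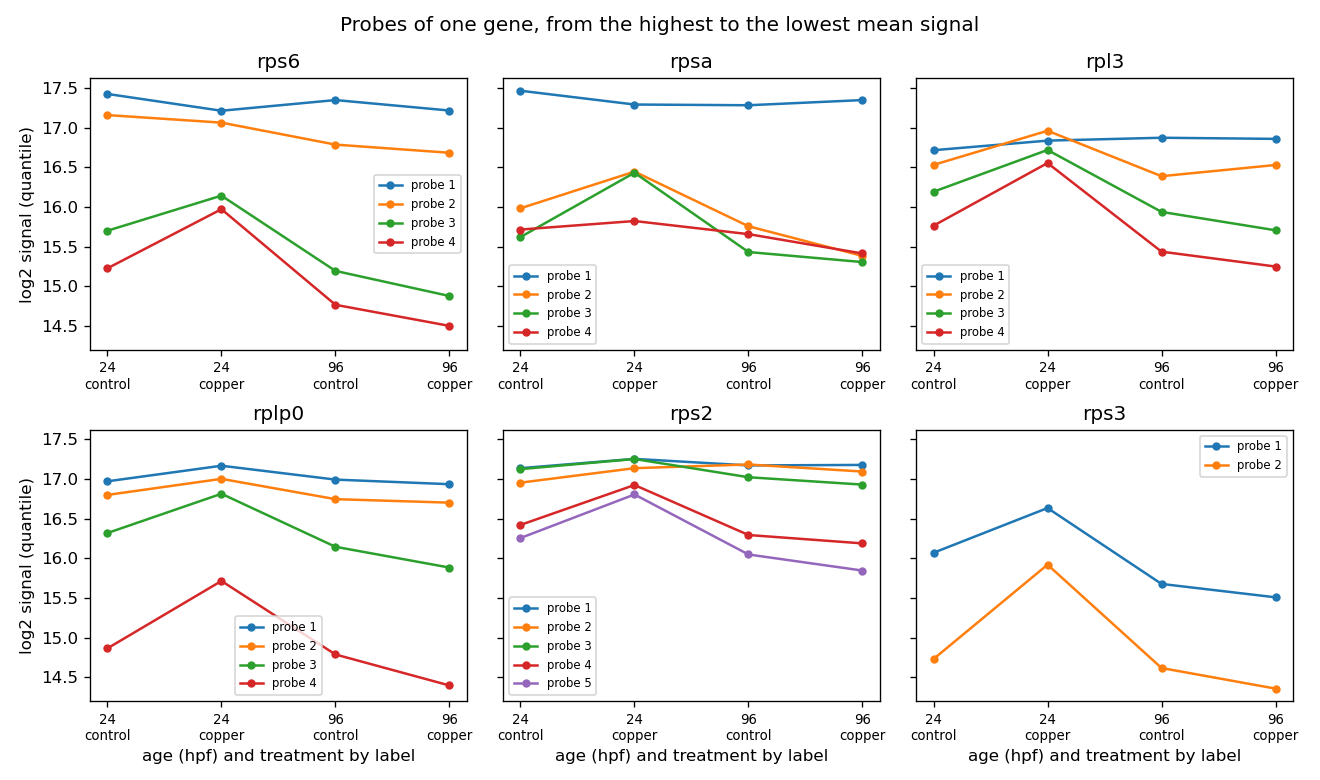
Log2 signal (quantile normalization) of every probe of 6 genes on the 4 arrays, in order control and copper at 24 hpf, control and copper at 96 hpf, with probe 1 the brightest. The dimmest probes of rps6, rpsa, rpl3, rplp0, rps2 and rps3 are highest on the array labelled copper at 24 hpf and lowest on the 96 hpf copper array, while the brightest probes of the first 5 genes stay nearly level.

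Most genes of ribosome assembly fell between the ages. Of 65 listed ribosome biogenesis and RNA polymerase I genes 58 were measured. By limma 43 of them were lower and 1 higher at 96 hpf (under 75th percentile scaling 39 and 1). Their median was -1.25, against -0.11 for the ribosomal protein genes. They were also dimmer, with a median mean log2 signal of 12.25 against 16.85. Over probes of any gene, the quartiles of the age difference were -0.92 and 0.62 below a mean of 14, and -0.15 and 0.15 at or above 17. The part of signal in this contrast was not tested. The methyltransferase of box C/D particles, fbl, read 13.25, 13.91, 11.75 and 11.14 and fell by 2.14 (adjusted p = 0.002). Its partner nop56 fell by 1.89 (adjusted p = 0.001), and bop1, needed for maturation of the large subunit, by 2.02 (adjusted p = 0.001). The nucleolar proteins npm1b and ncl fell by 2.47 (adjusted p = 0.002) and 1.52 (adjusted p = 0.006). The helicase ddx27 was the exception, higher by 1.61 (adjusted p = 0.009). In the 11 measured proliferation genes, such as pcna and mki67, all 11 were lower (median -2.05), so the biogenesis genes fell beside a fall in markers of dividing cells. The part of cell division in this result was not tested.

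The 65 mitochondrial ribosomal protein genes (mrps and mrpl) had a median age difference of -0.35 (-0.43 under 75th percentile scaling), with 2 lower by limma, where 15.1% of all genes were, and 0 under 75th percentile scaling. Of 17 other genes with TOP mRNAs 14 were measured, with a median of -0.28 and 3 lower (-0.05 and 1 under 75th percentile scaling, where 11.5% of all genes were lower). The 3 were eef2b, the translocation factor (-0.50, adjusted p = 0.030), eif3ha, an initiation factor subunit (-1.54, adjusted p = 0.016), and hnrnpa1b, an RNA-binding protein (-0.70, adjusted p = 0.023). Of 5 listed ribosomal proteins outside the naming rule 3 were measured and none was called: rack1, a scaffold on the small subunit, differed by -0.45 (adjusted p = 0.054), and faua, which encodes a fusion with a ubiquitin-like protein, by -0.17. All 3 lens markers and 2 of 3 neuron markers were higher at 96 hpf, and all 3 hatching gland markers lower. The part of these cell type markers in the members' values was not tested.

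**Figure D4:**
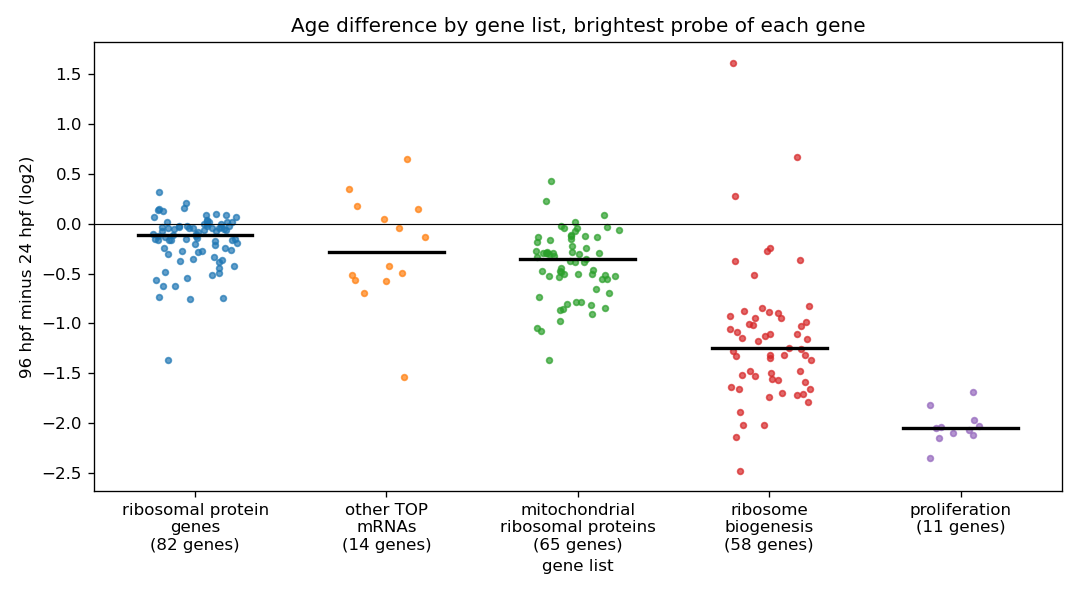
Age difference (96 minus 24 hpf, log2, quantile normalization, brightest probe of each gene) for the ribosomal protein genes and 4 other lists, with 1 point per gene and a black line at the median. Ribosomal protein genes lie near 0 with a median of -0.11 (0.24 under 75th percentile scaling), while the medians of ribosome biogenesis genes and proliferation genes lie at -1.25 and -2.05. By median mean log2 signal, the biogenesis and proliferation lists were dimmer (12.25 and 13.48) than the ribosomal protein genes (16.85).

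At 24 hpf, copper and control differed little in the ribosomal protein genes under quantile normalization. With 1 array per group these differences carry no test. The members' median difference (copper minus control by the labels) was -0.11 on the log2 scale, and 62 of 82 lay below 0, against a median of -0.26 and 71% below 0 over all genes. Past 1.5-fold, 1 member was higher (rpl6) and 2 were lower (rps27l and rpl19), where 8.34% of all genes were higher and 23.6% lower. No member passed 2-fold, where 3.58% of all genes were higher and 6.13% lower. Of the 315 probes of any gene with a mean log2 signal from 16 to 17, 13 were higher and 4 lower by 1.5-fold. At or above 17 these counts were 1 and 0 of 91. Member probes gave 0 and 1 of 100 from 16 to 17, and 0 and 0 of 36 at or above 17.

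The 24 hpf result depended on the scaling. With each array set to its 75th percentile, the members' median at 24 hpf was -0.62, against -0.27 over all genes. Of the 82 members 79 lay below 0, a count given without the share over all genes. Then 49 members were lower by at least 1.5-fold (22.1% of all genes were) and 0 higher. The median over all probes moved from -0.12 under quantile normalization to 0.03. Relative to the median of all genes, the members stood 0.15 higher under quantile normalization and -0.35 under 75th percentile scaling. Under normexp correction the median was -0.08. The 24 hpf arrays differed in brightness before scaling. The copper array's median processed signal was 366.4 against 162.2 on the control array, and its 75th percentile 2596 against 1530. The part of this gap in the members' values was not tested.

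**Figure D5:**
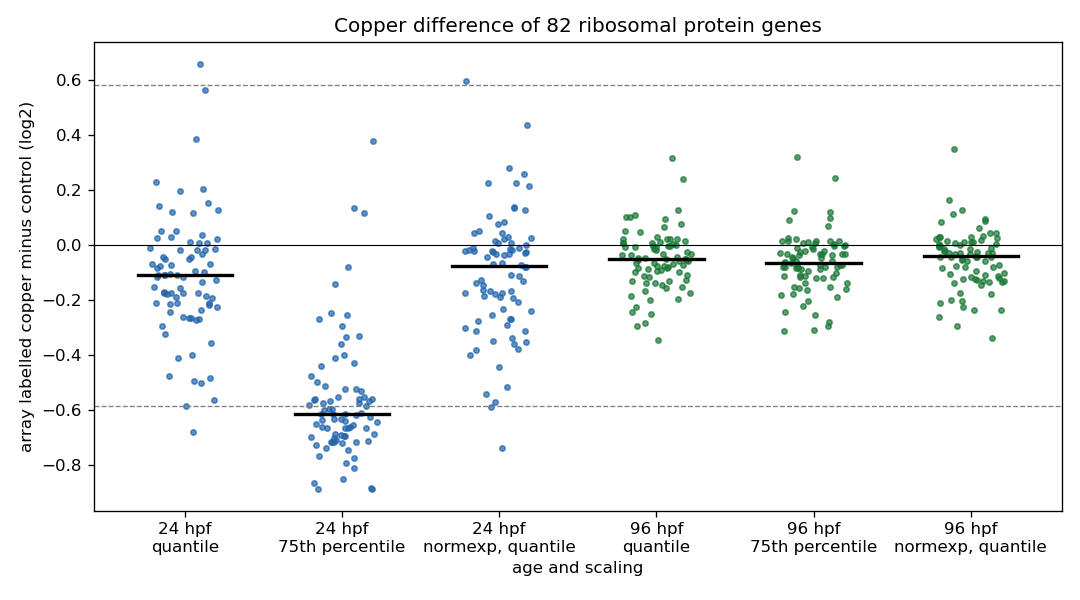
Difference between the array labelled copper and the control array (log2) for the 82 ribosomal protein genes at 24 hpf (blue) and 96 hpf (green) under 3 scalings, with 1 point per gene, a black line at the median and dashed lines at 1.5-fold. At 24 hpf the median lies at -0.11, -0.62 and -0.08 under the 3 scalings, and at 96 hpf at -0.05, -0.06 and -0.04. All signs turn if the file names rather than the labels give the treatment.

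The genes at the top of the 24 hpf comparison were rpl6, rps3, rpl7l1, rpl10, rplp1 and rplp0. For rpl6, a large subunit protein on the solvent side, the brighter probe read 15.47 on the control and 16.13 on the copper array at 24 hpf, a difference of 0.66, and its other probe differed by 0.30. At 96 hpf the rpl6 probe read 15.27 and 15.08. The copper array of 24 hpf was thus the highest of the 4 for this gene. The differences were 0.56 for rps3, 0.39 for rpl7l1, 0.23 for rpl10, 0.21 for rplp1 and 0.20 for rplp0. Only rpl6, rps3 and rpl7l1 stayed above 0 under all 3 scalings (0.38, 0.13 and 0.12 under the 75th percentile), whereas rpl10, rplp1 and rplp0 turned to -0.30, -0.25 and -0.36.

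At the bottom stood rps27l, rpl19, rps26, rpl22l1, rpl4 and rps8b, each below 0 under all 3 scalings. Of these, rps8b was only at -0.08 under the 75th percentile. Before scaling, its dim probe read 145 on the control and 233 on the copper array at 24 hpf. The gene rps27l, a paralog of the small subunit protein eS27, read 12.74 and 12.06 on the 24 hpf control and copper arrays, a difference of -0.68, and 12.38 and 12.33 at 96 hpf. The copper array of 24 hpf was the lowest of the 4. The other paralogs, rps27.1 and rps27.2, differed by -0.21 and -0.29. For rpl19, at the tunnel exit and in a bridge between the subunits, the probe read 15.97 and 15.38 at 24 hpf (-0.59) and 15.72 and 15.59 at 96 hpf. The difference at 24 hpf was -0.56 for rps26, which contacts mRNA at the exit channel, -0.50 for rpl22l1, -0.50 for rpl4, whose loop narrows the exit tunnel, and -0.48 for rps8b.

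Under quantile normalization the role groups lay close together at 24 hpf. The exit tunnel genes listed with the age differences all read lower with copper, from -0.59 (rpl19) to -0.04 (rpl31). Of the 10 listed Diamond-Blackfan anaemia orthologs 8 were below 0, with a median of -0.18, where 71% of all genes were below 0. Among them rps19, the gene most often mutated in the human disease, read 16.93 and 16.51 at 24 hpf and 16.69 and 16.65 at 96 hpf, a difference of -0.41 at the first age, and its 3 probes all lay below 0. The gene rps26 differed by -0.56 and rpl35a by -0.27, while rps24 (-0.03), rps10 (0.02) and rpl5a (0.03) lay near 0. In the 5S particle, rpl11 differed by -0.19 and rpl5b by -0.14. The stalk and laminin-receptor genes were split, with rplp0 and rplp1 above and rplp2 (-0.36) and rpsa (-0.17) below 0. The gene rps27a, which encodes a ubiquitin fusion, was at 0.02. Under 75th percentile scaling rps24, rps10, rpl5a and rps27a lay at -0.56, -0.25, -0.34 and -0.53. That scaling also put rplp0 (-0.36) and rplp1 (-0.25) below 0, beside rplp2 (-0.74) and rpsa (-0.61).

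Probes of one gene disagreed at 24 hpf as well. The brightest rpsa probe read 17.47 on the control and 17.29 on the copper array (-0.17), and another rpsa probe read 15.62 and 16.43 (0.81). For rps6 the 4 probes differed by -0.21, -0.10, 0.44 and 0.75, from the brightest to the dimmest. The probes of rpl3, near the peptidyl transferase centre, gave 0.12, 0.43, 0.53 and 0.79, and those of rplp0 0.20, 0.20, 0.49 and 0.85. In each of these genes the dimmest probe lay above the brightest. Over the 57 members with several probes the dimmest lay above the brightest in 41, with a median gap of 0.19, and over all genes with several probes the median gap was 0.54, with 81.8% in that order. By dimmest probe the members' median was 0.01, with 8 past 1.5-fold (5 higher, 3 lower, against 25% and 16.2% of all genes). In 30 of the 57 genes all probes had one sign under quantile normalization, lower in 20 and higher in 10. That count was not made over all genes with several probes. Counted over probes, 7 of 174 were higher and 3 lower by 1.5-fold, against 18.6% and 20.2% of all probes, and 75 lay above 0 (43% of all probes).

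At 24 hpf, under quantile normalization, member probes of a middle range, from 14 to 16, leaned the other way from the members as a whole. This range was not among the planned results. Over all 174 member probes the Pearson correlation of the copper difference at 24 hpf with mean signal was 0.02. Of the 29 member probes with a mean log2 signal from 15 to 16, 23 were higher on the copper array at 24 hpf, with a median of 0.30. Of the 462 probes of any gene in that range 191 were higher, with a median of -0.08. Under 75th percentile scaling 14 of the 29 were higher, with a median of -0.03. At 96 hpf the same 29 were all lower on the copper array, with a median of -0.21. Of all 462 probes in the range 306 were lower, with a median of -0.12. The 2 member probes from 14 to 15, the dimmest of rplp0 and rps3, had the same signs at both ages. The 7 dimmest member probes, below 14, did not share this pattern: 5 of 7 were lower on the copper array at 24 hpf (median -0.45), and 3 of 7 were higher at 96 hpf (median -0.06). Several of these probes share a gene, so they are not independent, and neither difference was tested.

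At 96 hpf the copper and control arrays were closer still. The members' median difference was -0.05, equal to that of all genes to 2 decimals, and 59 of 82 lay below 0 (56% of all genes). The differences ran from -0.34 to 0.32, and no member passed 1.5-fold, where 11.6% of all genes were higher and 8.38% lower. Of the 315 probes of any gene with a mean log2 signal from 16 to 17, 0 were higher and 15 lower by 1.5-fold. None of the 91 at or above 17 passed it. The median was -0.06 under 75th percentile scaling, -0.04 under normexp correction and -0.12 by dimmest probe. Of the 82 genes, 66 kept one sign under the 3 scalings, 52 of them below 0 and 14 above. The share of all genes that did so is not given.

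The highest difference at 96 hpf was that of rps3a, a small subunit protein near the mRNA exit. Its brightest probe read 16.93 on the control and 17.25 on the copper array (0.32), after 17.07 and 17.05 at 24 hpf. The other rps3a probes gave 0.01 and -0.17. The gene rpl29, a small protein of the large subunit, read 16.14 and 16.38 (0.24), and rps8a, rps27a and rplp2 were at 0.13, 0.10 and 0.10. Of these, rps8a turned to -0.05 under 75th percentile scaling. At the bottom stood rpl7l1 (-0.34), rps10 (-0.30), rps26 (-0.29), rps27.1 (-0.25), rps8b (-0.24) and rpl28 (-0.23), each below 0 under all 3 scalings. The rps10 probe read 15.17 and 14.87 at 96 hpf after 15.57 and 15.59 at 24 hpf, and the rps26 probe 15.87 and 15.58 after 16.36 and 15.80. In rps26 the copper array was the lower at both ages.

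By role, 9 of the 10 listed Diamond-Blackfan anaemia orthologs were below 0 at 96 hpf (median -0.07), where 56% of all genes were. Among them were all 3 of the 5S particle genes (median -0.11). The exit tunnel genes listed with the age differences ran from -0.13 (rpl19) to 0.05 (rpl23a). The genes whose probes differed most were rps24, rps3a, rpsa and rpl31. In rps24 and rpl31 the spread came from dim probes: the brightest rps24 probe differed by -0.01 and the dimmest, near a log2 signal of 8.47, by 0.53. In 36 of the 57 genes with several probes all probes had one sign at 96 hpf, lower in 33 and higher in 3. That count was not made over all genes. Counted over probes, 134 of 174 lay below 0, against 57.9% of all probes, and none passed 1.5-fold (11.1% of all probes were higher and 11.3% lower). Beside these small differences, the signal summed over the 8 pancreas markers, as log2, went from 13.12 on the control to 17.94 on the copper array at 96 hpf (10.95 and 10.65 at 24 hpf). That of the 3 hatching gland markers went from 14.51 to 10.62 (18.44 and 18.35 at 24 hpf), and that of the 5 erythroid markers, all lower with copper, from 18.13 to 17.38. All 11 proliferation genes were lower (median -0.60), as were 47 of 58 biogenesis genes (median -0.15). The part of these markers in the members' values was not tested.

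Copper over both ages called no member. In the limma fit over the 4 arrays, which asks for a like difference at 24 and 96 hpf, 0 of 82 members and 0 of all genes (0%) passed an adjusted p of 0.05. At an unadjusted p under 0.05 there were 0 members, 187 genes of 12332 and 710 probes of 36026. No other tool was run for this comparison.

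The authors' deposited table lists probes past 2-fold between the arrays of an age. It held 1 member probe at 24 hpf, the dimmer rps3 probe (chromosome 18, 47361522 to 47362741, Zv9), and 0 at 96 hpf. In the authors' deposited table its log2 fold change was -1.19, while the present value was 1.19, since the authors' comparison follows the file names and the present one the labels. This probe read 14.73 on the control and 15.92 on the copper array at 24 hpf, and 14.62 and 14.36 at 96 hpf. The brighter rps3 probe had a difference of 0.56 at 24 hpf, in the same direction but under 2-fold.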

How the data were processed

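Per the file headers, the authors read each array with Agilent Feature Extraction 11.0.1.1 and deposited spot intensity values that were background-subtracted but not normalized between arrays. Per the series' design text, labelling followed the Quick Amp protocol 5.7, and the authors quantile-normalized in GeneSpring GX 11.5.1. The authors' deposited tables give log2 fold changes of probes past 2-fold; their 16 per-sample columns were not used. Here control spots were left out, and the spots of a probe were averaged as log2 processed intensity and quantile-normalized. Of 43603 probes, 34 were lost to flags. Of 43569 probes, 25957 were named for 13366 genes through RefSeq accessions (assembly GRCz12tu, names only) and 17612 were not named. A gene's value is its brightest detected probe. Age and copper were fitted with limma 3.58.1 (R 4.3.3, package data.table, version 1.17.8), with a trend in eBayes and p-values adjusted by Benjamini-Hochberg over 36026 probes. The fit was tested on simulated data, where it recovered small changes far less often than large ones. Tables were summarised with pandas 2.3.3 and numpy 2.4.6 under Python 3.11.15.

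The members and lists were chosen with earlier results of these data known. Named members are role groups, the 8 highest and 8 lowest by age, the 6 highest and 6 lowest by copper at each age, and, at each age, the 4 with the widest spread over probes. Among the exit tunnel genes, rpl4 stands in place of rpl23 and rpl24 of the planned list. Other named members, such as rps23 and rpl8, were chosen after their values were seen. The ranges of mean signal were not among the planned results. Alternatives were 75th percentile scaling, normexp (offset 50) on the median spot and background signals, other detection filters, the mean or dimmest probe, no trend, age alone, and leaving out each array. Per the file headers, the arrays shared a slide and a scan, so no such batch separates them. With 1 array per group the number of arrays limits the precision. A few genes that the rule or the lists take are not reported here.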

Additional observations from a re-analysis of the deposited data

Results flagged for a closer look

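The copper difference of rpl7l1, the relative of rpl7 read by 1 probe, had opposite signs at the 2 ages: 0.39 at 24 hpf and -0.34 at 96 hpf. The sign held under 75th percentile scaling (0.12 and -0.31) and normexp correction (0.28 and -0.34). Its 24 hpf copper array was the highest of the 4 arrays and its 96 hpf copper array the lowest. Opposite signs were not particular to rpl7l1. The genes rpl6 (0.66 and -0.19) and rps3 (0.56 and -0.17) had the same order of signs under all 3 scalings. Other members had the reverse order, such as rplp2 (-0.36 and 0.10). The difference between the ages was not tested, as there is 1 array per group.

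By the dimmest probe of each gene, the members' median copper difference was 0.0086 at 24 hpf and -0.12 at 96 hpf, of opposite sign. The median over all genes by dimmest probe was 0.02 and -0.10, and by brightest probe both medians of the members lay below 0. This difference between the ages was not tested either.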

How the results depend on the processing

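No paired analysis was possible because each group has 1 array and the labels share only 1 replicate number. The count of members lower with age (3) was 1 under 75th percentile scaling, 1 without a detection filter, 0 without trend in eBayes (smallest adjusted p 0.058), 4 under normexp correction, 6 with age alone in the model, 16 by dimmest probe (added after seeing the data) and between 1 and 5 when 1 array was left out. The 24 hpf median (-0.11) was -0.62 under 75th percentile scaling, 0.0086 by dimmest probe and 0.11 with the treatment as the file names give it, which also turned the 96 hpf median from -0.05 to 0.050. The 3 members past 1.5-fold at 24 hpf became 49 under 75th percentile scaling, 8 by dimmest probe and 0 at 2-fold. Detection on all 4 arrays and the mean of a gene's probes kept these counts and signs. No member was called higher with age, called for copper over both ages or past 1.5-fold at 96 hpf under any alternative run for these. Leaving out rpl7l1, the counterpart of a yeast assembly factor, kept the medians at -0.11 and -0.05 and left 2 members lower with age, a count added after seeing the data.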
